A study of Homo sapiens with 6 samples.

Results

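The genes described here encode the kinases Aurora A, Polo-like kinase 1, Polo-like kinase 4 and NEK2, the Aurora A partners TPX2 and BORA, and the 4 subunits of the chromosomal passenger complex (AURKB, INCENP, BIRC5 and CDCA8). They were read by 34 probe sets, those whose single gene symbol in the array's annotation is one of these names, out of 44988 probe sets with 1 symbol. All 10 genes were measured, among 18132 genes in all, and no filter on low values was applied. Another probe set lists AURKA together with other genes and was not used.

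Affymetrix arrays measured messenger RNA of A375, an established line of human melanoma cells. The knockdown group consisted of 3 biological replicates of A375 cells given a lentiviral short hairpin RNA against UBE2S, the ubiquitin-conjugating enzyme that lengthens the ubiquitin chains made by the anaphase-promoting complex (APC/C). The control group consisted of 3 biological replicates of A375 cells, and the labels do not say what they received, how many hairpins were used or how long after infection RNA was taken. The labels spell the target in 2 ways (UBE2S and UEB2S), read here as UBE2S. Nothing in the labels says that the replicates came from separate infections, so p-values measure the spread between these samples, which may be technical.

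Each value below is log2 expression relative to the median of the 6 arrays for that probe set, so a value of -0.64 lies 0.64 below that median, and the absolute level of a gene is not known. Changes are knockdown minus control on the log2 scale. They were tested with limma over all genes, and a gene is said to have fallen or risen when its Benjamini-Hochberg adjusted p was under 0.05. Such calls were common. Of all genes, 18.6% fell and 21.4% rose. UBE2S stood at -1.13, -1.05 and -1.01 in the knockdown arrays and at 1.06, 1.01 and 1.01 in the control arrays, so the 6 arrays match their labels. In knockdown arrays the hybridization spike-ins were 0.17 higher and the control probe sets of ACTB showed a 3' minus 5' value 0.19 higher, both without overlap, and that of GAPDH was 0.023 higher, with overlap. The part of array handling or RNA integrity in the results was not tested. Of 8 measured melanocyte lineage genes, S100B and SOX10 had a probe set in the highest of 3 classes of original signal, and so had 1 of 7 fibroblast markers (PDGFRA), 1 of 6 epithelial markers (KRT18) and 0 of 7 blood cell markers. A gene in a lower class may still be expressed. Of the melanocyte genes S100B (1.09) and TYRP1 (0.22) rose and MITF fell (-0.72). HBB, a blood cell marker, rose by 0.41 and LUM, a fibroblast marker, by 0.93, while the fibroblast marker DCN (-0.23) and 3 epithelial keratins (KRT8 at -0.69, KRT14 at -0.46 and KRT18 at -0.29) fell. With hybridization spike-in scaling TYRP1 stood at 0.056 and was not called, and the other 8 kept direction and call. The other 19 markers did not pass the test, and the part of cell identity or other cell types in the results was not tested.

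These kinases act at different steps of the cell cycle. BORA helps Aurora A to activate PLK1 before mitosis, TPX2 then holds Aurora A active on spindle microtubules, PLK4 starts the copying of centrioles, and NEK2 takes part in separating the centrosomes. In the chromosomal passenger complex, INCENP, survivin (the product of BIRC5) and borealin (the product of CDCA8) place the kinase Aurora B first at centromeres and later at the spindle midzone. The APC/C marks Aurora A, Aurora B, PLK1 and TPX2, among others, for destruction at mitotic exit, so the proteins can change without their transcripts; only transcripts were measured here.

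Many genes of late G2 and mitosis carry, close before their start sites, the letters TTTGAA or TTCGAA (forms of the cell cycle genes homology region, bound by the MuvB core of the DREAM complex) and CCAAT boxes, bound by NF-Y. The 250 bases before the RefSeq start (GRCh38.p14, 5' to 3' on the gene's strand) are shown for 3 genes that fell and for 2 whose change did not pass the test, because these promoters let the letters be set beside the changes. Capitals mark every match to these letters on either strand. A CCAAT box on the other strand reads ATTGG here, and TTTGAA on the other strand would read TTCAAA, which did not occur in these windows.
PLK1, chr16:23678639-23678888, plus strand: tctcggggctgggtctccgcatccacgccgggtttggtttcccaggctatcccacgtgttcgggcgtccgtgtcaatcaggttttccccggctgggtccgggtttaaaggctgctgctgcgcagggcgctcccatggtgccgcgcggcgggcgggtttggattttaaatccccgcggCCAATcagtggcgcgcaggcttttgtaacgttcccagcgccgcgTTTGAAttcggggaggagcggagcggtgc
BORA, chr13:72727673-72727922, plus strand: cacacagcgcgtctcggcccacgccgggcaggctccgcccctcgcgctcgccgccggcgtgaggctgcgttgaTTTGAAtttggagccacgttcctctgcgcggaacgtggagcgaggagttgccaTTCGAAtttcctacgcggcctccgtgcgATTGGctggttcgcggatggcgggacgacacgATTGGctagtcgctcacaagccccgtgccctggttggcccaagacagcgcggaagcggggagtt
CDCA8, chr1:37692266-37692515, plus strand: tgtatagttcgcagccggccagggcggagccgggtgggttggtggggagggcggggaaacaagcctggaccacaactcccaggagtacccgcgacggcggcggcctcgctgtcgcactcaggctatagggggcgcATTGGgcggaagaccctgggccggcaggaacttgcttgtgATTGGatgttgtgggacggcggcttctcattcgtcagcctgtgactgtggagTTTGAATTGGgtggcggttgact
INCENP, chr11:62123761-62124010, plus strand: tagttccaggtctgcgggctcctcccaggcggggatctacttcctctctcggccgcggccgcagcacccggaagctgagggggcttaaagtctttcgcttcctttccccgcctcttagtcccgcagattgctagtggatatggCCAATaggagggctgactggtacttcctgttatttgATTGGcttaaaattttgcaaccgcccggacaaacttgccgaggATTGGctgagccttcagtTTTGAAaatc
NEK2, chr1:211675622-211675871, minus strand: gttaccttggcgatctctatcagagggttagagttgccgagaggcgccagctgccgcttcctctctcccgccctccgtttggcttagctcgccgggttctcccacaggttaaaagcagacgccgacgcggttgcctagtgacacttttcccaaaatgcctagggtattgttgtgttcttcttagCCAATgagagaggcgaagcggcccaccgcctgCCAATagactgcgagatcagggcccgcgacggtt

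In the PLK1 promoter TTTGAA begins 29 bases before the start and a CCAAT box begins 73 bases before it. In CDCA8 the TTTGAA begins 23 bases before the start and shares 1 base pair with an ATTGG. BORA holds TTTGAA at 177 bases and TTCGAA at 124 bases before the start, and INCENP holds TTTGAA at 10 bases. The NEK2 window holds 2 CCAAT boxes, at 66 and 34 bases, and neither TTTGAA nor TTCGAA. The set of promoter sequences used here held 7 of the 10 genes, with 3 start sites for PLK4 and 2 for AURKB. Counting a gene once if any of its start sites matched, 4 of the 7 (PLK1, BORA, CDCA8 and INCENP) had TTTGAA or TTCGAA and all 7 had CCAAT. Among 35116 windows of the same length before RefSeq starts, 14.3% held TTTGAA or TTCGAA, 32% held CCAAT and 5.05% held both kinds. These shares count single windows, whereas a gene with several start sites could match in any of them, so the measures are unlike. AURKA, TPX2 and BIRC5 were missing from the set of sequences used, so their promoters were not searched. A match is a run of letters and not a measured binding site, and TTTGAA or TTCGAA occurred before 3 genes that fell (PLK1, BORA and CDCA8) and before INCENP, which did not pass the test. PLK4 and AURKB, which also fell, had neither in any of their 5 windows.

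Most of these mitotic regulators were lower after UBE2S knockdown, AURKA by far the most, whereas BIRC5 was slightly higher. Of the 10 genes, 7 fell (AURKA, PLK1, BORA, AURKB, PLK4, TPX2 and CDCA8), 1 rose (BIRC5), and NEK2 and INCENP did not pass the test. BIRC5 stood at -0.030 and was not called when arrays were scaled on the hybridization spike-ins. In each of the 7 genes every knockdown array lay below every control array, a pattern found in 23.9% of all genes, and BIRC5 was higher without overlap, as 26.2% of all genes were. Falls were called in 18.6% of all genes and rises in 21.4%. The median change of the 10 genes was -0.25, beside -0.0038 over all genes. In bulk RNA, fewer mitotic cells and less of a transcript per cell cannot be told apart.

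**Figure D1:**
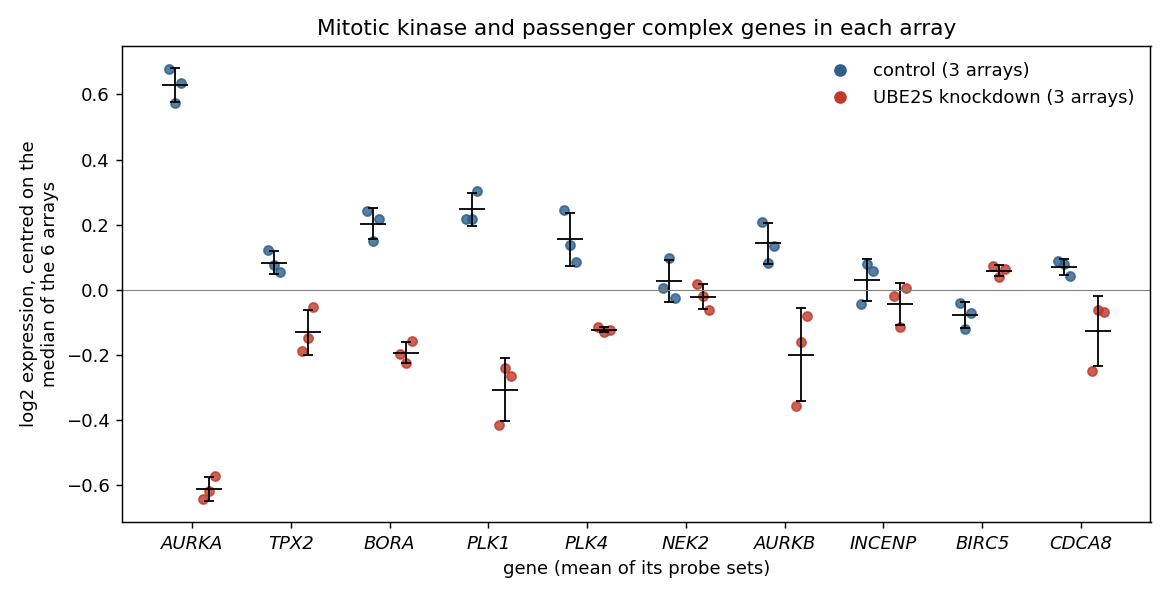
Log2 expression of each gene relative to the median of the 6 arrays (vertical axis; mean of the gene's probe sets) in the 3 control arrays (blue) and 3 UBE2S knockdown arrays (red), with bars for the mean ± SD. AURKA is the most widely separated gene, NEK2 and INCENP overlap between the groups, and BIRC5 is the gene whose knockdown arrays lie above its control arrays in the values as deposited.

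AURKA, which encodes the kinase that matures centrosomes and builds the bipolar spindle, stood at -0.64, -0.62 and -0.57 in the knockdown arrays and at 0.68, 0.57 and 0.64 in the control arrays. The groups were separated by more than 1 log2 unit, and the arrays within each group lay close together. Means were -0.61 ± 0.04 (SD, n = 3) and 0.63 ± 0.05 (SD, n = 3). The change of -1.24 (SE 0.04, 95% interval from -1.34 to -1.15, adjusted p = 5.62e-07 in limma) corresponds to 42.3% of the control signal, or a 2.37-fold fall. Among all 18132 genes, 47 fell further than AURKA. It was read by 1 probe set, and the probe set that lists AURKA with other genes was not used. The size of the fall was therefore not checked by another probe set.

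TPX2, the microtubule-bound activator of Aurora A, had a smaller change than the kinase. It stood at -0.19, -0.15 and -0.05 in the knockdown arrays and at 0.12, 0.07 and 0.05 in the control arrays. Every knockdown array was lower, knockdown replicate 3 by the least. The change of -0.21 (SE 0.05, adjusted p = 0.00596 in limma) left 86.2% of the control signal. It rests on 1 probe set, of the _s_at kind that can be shared between transcripts. Taken within each array, AURKA minus TPX2 was -0.45, -0.47 and -0.52 in knockdown and 0.56, 0.50 and 0.58 in control. This difference between the changes, -1.03, showed no overlap between the groups. An exact two-sided permutation test gave p = 0.1, which is the smallest value that 3 arrays against 3 can give.

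BORA, the cofactor through which Aurora A switches on PLK1, stood at -0.20, -0.22 and -0.16 in the knockdown arrays and at 0.24, 0.15 and 0.22 in the control arrays. The groups were well apart, with little spread in either. The change was -0.40 (SE 0.04, adjusted p = 1.15e-04 in limma), or 76.0% of the control signal. All 3 BORA probe sets fell, by 0.33 to 0.47 on the log2 scale, and a test of whether probe sets of the gene differ gave an adjusted p of 0.517 in limma's diffSplice, a test passed by 28.4% of the genes with 2 or more probe sets.

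PLK1, the kinase that drives mitotic entry, chromosome attachment and cytokinesis, had the second largest change of the 10 genes. It stood at -0.42, -0.24 and -0.27 in the knockdown arrays and at 0.22, 0.22 and 0.30 in the control arrays. Knockdown replicate 1 was the lowest array, and the other two were still well below all control arrays. The change was -0.55 (SE 0.06, 95% interval from -0.68 to -0.43, adjusted p = 1.04e-04 in limma), or 68.1% of the control signal. Each of the 3 PLK1 probe sets fell, with values of -0.55, -0.48 and -0.63.

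PLK4, the kinase that sets the number of centrioles, stood at -0.12, -0.13 and -0.12 in the knockdown arrays, which were almost equal. Its control arrays were at 0.24, 0.14 and 0.08 and all lay higher. The change was -0.28 (SE 0.05, adjusted p = 0.00177 in limma), or 82.5% of the control signal. Of its 2 probe sets 1 fell (-0.31), and the other stood at -0.25 with an adjusted p of 0.0531, both without overlap between the groups.

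NEK2, a kinase that acts on the centrosome linker, did not pass the test with the deposited scaling. It stood at 0.02, -0.02 and -0.06 in the knockdown arrays and at 0.01, 0.10 and -0.03 in the control arrays, so that the groups overlapped. The difference was -0.047 (SE 0.04, 95% interval from -0.15 to 0.06, adjusted p = 0.465 in limma). It was -0.027 without knockdown replicate 3, -0.011 without control replicate 2, -0.073 without control replicate 3 and -0.22 with the probe set of largest variance, none of them called. None of the 7 NEK2 probe sets passed the test. Their differences ran from -0.22 to 0.11, and whether they differed from each other did not pass the test (adjusted p = 0.0810 in diffSplice). NEK2 fell when arrays were scaled on the hybridization spike-ins (-0.21, adjusted p = 0.0114 in limma) or the poly-A spike-ins (-0.14, adjusted p = 0.0294).

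**Figure D2:**
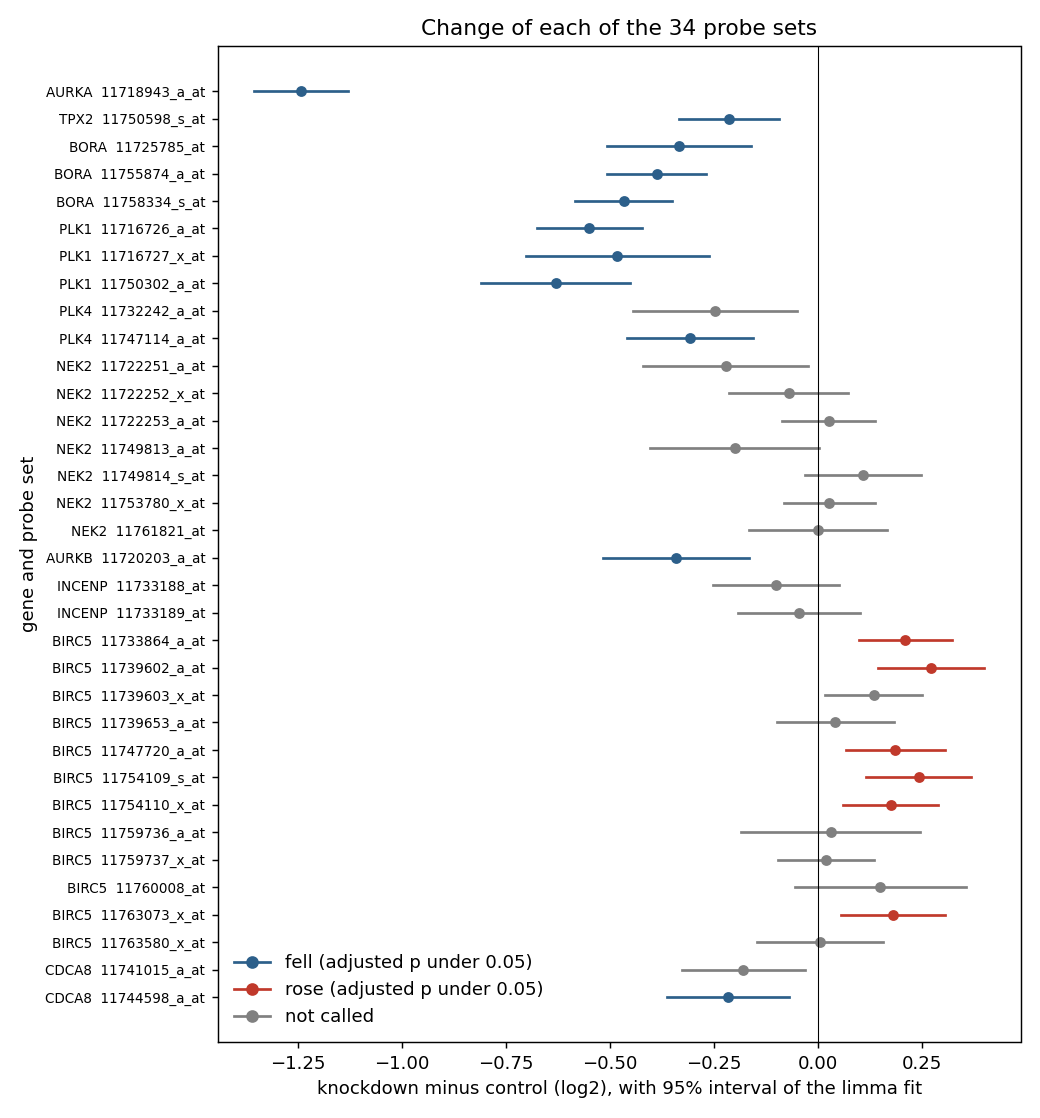
Change of each of the 34 probe sets (horizontal axis, knockdown minus control on the log2 scale) with its 95% interval from the limma fit of all probe sets; blue fell, red rose, grey did not pass the test. All probe sets of BORA and PLK1 lie left of 0, those of NEK2 lie on both sides, and those of BIRC5 run from 0.0057 to 0.27 in the values as deposited.

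Of the 4 subunits of the chromosomal passenger complex, AURKB and CDCA8 fell, INCENP did not pass the test, and BIRC5 rose with the deposited scaling but not with either spike-in scaling. AURKB, the kinase of the complex, stood at -0.36, -0.16 and -0.08 in the knockdown arrays and at 0.21, 0.08 and 0.14 in the control arrays. Knockdown replicate 1 was the lowest by a wide margin, yet no knockdown array reached a control array. The change was -0.34 (SE 0.07, 95% interval from -0.51 to -0.18, adjusted p = 0.00568 in limma), or 78.9% of the control signal, from 1 probe set. Without knockdown replicate 1 it was -0.26 (adjusted p = 0.00788 in limma).

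CDCA8, whose product borealin binds survivin and INCENP, stood at -0.25, -0.06 and -0.07 in the knockdown arrays and at 0.09, 0.08 and 0.04 in the control arrays. As in AURKB and PLK1, knockdown replicate 1 was the lowest array. The change was -0.20 (SE 0.06, adjusted p = 0.0227 in limma), or 87.2% of the control signal. The call was lost without control replicate 1 (adjusted p = 0.0675) or control replicate 2 (adjusted p = 0.0594), with changes of -0.19 in both cases. One of its 2 probe sets fell (-0.22) and the other stood at -0.18 with an adjusted p of 0.0617.

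INCENP, the scaffold that ties the kinase to the other subunits, stood at -0.02, -0.12 and 0.01 in the knockdown arrays and at -0.04, 0.08 and 0.06 in the control arrays. Control replicate 1 lay among the knockdown arrays. The difference was -0.074 (SE 0.05, 95% interval from -0.19 to 0.04, adjusted p = 0.292 in limma), and neither of its 2 probe sets passed the test. It was -0.037 without knockdown replicate 2 and -0.11 without control replicate 1, and was called in neither case. INCENP fell when arrays were scaled on the hybridization spike-ins (-0.24, adjusted p = 0.00656 in limma) or the poly-A spike-ins (-0.17, adjusted p = 0.0154).

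BIRC5, which encodes survivin, the subunit that reads the centromere mark and is also known as an inhibitor of apoptosis, stood at 0.07, 0.04 and 0.06 in the knockdown arrays and at -0.04, -0.12 and -0.07 in the control arrays. All knockdown arrays were higher, but the distance was small. The rise was 0.14 (SE 0.04, 95% interval from 0.05 to 0.22, adjusted p = 0.0186 in limma), or 110.0% of the control signal. It was not called without knockdown replicate 1 (0.13, adjusted p = 0.0564) or without control replicate 2 (0.12, adjusted p = 0.0609), and it became 0.040 with poly-A spike-in scaling and -0.030 with hybridization spike-in scaling. Of the 12 BIRC5 probe sets 6 rose and 0 fell, beside 19.5% rising and 17.4% falling among all probe sets. Without overlap 7 were higher, beside 25% of all probe sets. The 12 share target sequence and are not independent. Among them the 4 in the highest signal class all rose, by 0.18 to 0.27, a count given without the share of rises in that class. The other 8 ranged from 0.0057 to 0.24, and whether the 12 differed from each other did not pass the test (adjusted p = 0.125 in diffSplice).

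BIRC5 was also set against its partners within each array, which cancels any scaling of whole arrays. BIRC5 minus the mean of AURKB, INCENP and CDCA8 was 0.28, 0.15 and 0.11 in the knockdown arrays and -0.13, -0.20 and -0.15 in the control arrays. Every knockdown array was above every control array. The difference of 0.34 had an exact two-sided permutation p of 0.1, the smallest possible here. Its adjusted p was 0.275 over the 11 such differences computed. It could therefore not have passed the test at any size. The contrast was chosen with the changes of these genes known.

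Counted by probe set, 11 of the 34 fell, 6 rose and 17 did not pass the test, beside 17.4% falling and 19.5% rising among all 49293 probe sets. Without overlap between the groups, 14 were lower and 7 higher, beside 23.3% and 25% of all probe sets. No probe set of the 7 genes with 2 or more differed from the others of its gene after adjustment in diffSplice, where 19.2% of the probe sets tested over all genes did.

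From the largest fall upward the order was AURKA, PLK1, BORA, AURKB, PLK4, TPX2, CDCA8, INCENP, NEK2 and BIRC5. Among the 9 pairs of neighbours in this order, the within-array difference separated the groups without overlap for AURKA and PLK1 (-0.69) and for NEK2 and BIRC5 (-0.18). The other 7 neighbouring pairs overlapped. With the 2 comparisons above these were 11 differences. After adjustment over them the exact permutation p-values were between 0.275 and 0.9. With 3 arrays against 3 the unadjusted p cannot go below 0.1, so no difference could have passed, whatever its size. The neighbours were also set by the same changes that were compared.

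**Figure D3:**
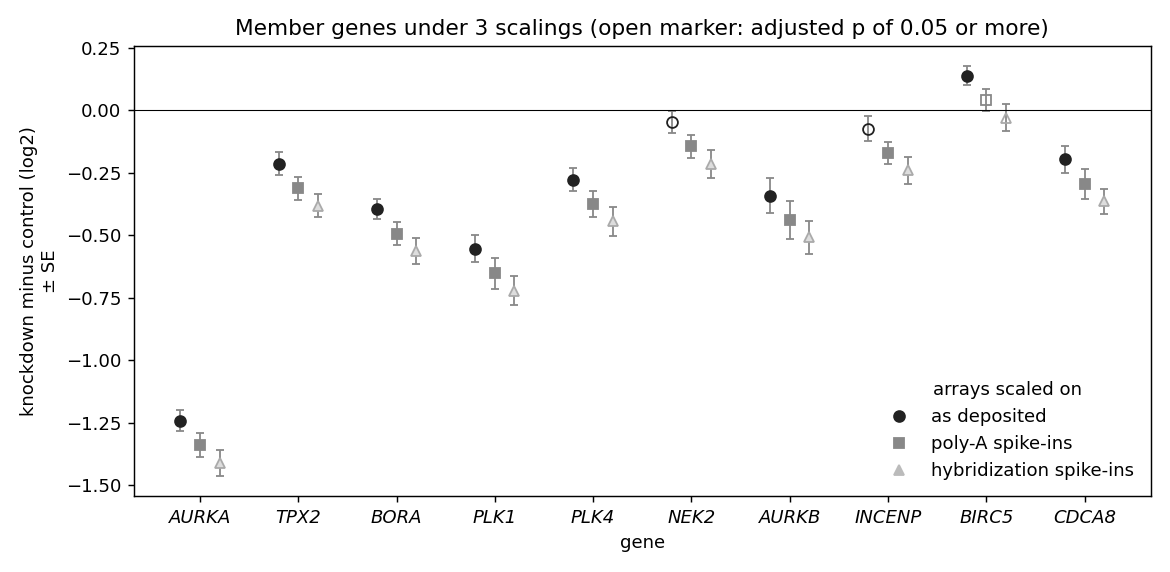
Change of each gene (vertical axis, knockdown minus control on the log2 scale, ± SE of the limma fit) with arrays as deposited (circles) or scaled on the poly-A (squares) or hybridization (triangles) spike-in probe sets; open markers did not pass the test. The 7 genes that fell stay below 0 under all 3 scalings, NEK2 and INCENP are called lower under both spike-in scalings, and BIRC5 moves from 0.14 to 0.040 and -0.030.

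Because all values are relative, the scaling of the arrays matters for small changes. With arrays scaled on the hybridization spike-ins the median over all genes was -0.17, and with poly-A spike-ins it was -0.10, where the deposited values gave -0.0038. Under either, 9 of the 10 genes fell and 0 rose, beside 50.7% of all genes falling and 9.73% rising with hybridization spike-ins, and 34.7% falling and 13.7% rising with poly-A spike-ins. AURKA then stood at -1.41 and -1.34. Each scaling moves all genes of an array by the same amount, so it cannot alter the order of the genes.

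Genes around these kinases were counted from 8 lists, chosen with earlier results of these data known. The shares of all genes given beside the counts are a description and not a test. In the list of recruiters and targets of the passenger complex, 15 of 25 genes fell and 3 rose, with a median of -0.16, beside 18.6% and 21.4% of all genes. RCC2, a partner of the complex at centromeres, fell (-0.85), as did the heterochromatin protein CBX3 (-0.54) and the centromeric histone CENPA (-0.53). HASPIN, the kinase that writes the histone mark read by survivin, also fell (-0.29, SE 0.05, adjusted p = 0.00243 in limma). CHMP4C, an abscission factor, rose by 0.31, and KLHL13, an adaptor of the ligase that removes Aurora B from chromosomes, by 0.25. Of the other listed parts of that ligase, KLHL21 (-0.49) and CUL3 (-0.21) fell, and KLHL9 (-0.012) did not pass the test. The tubulin-binding protein STMN1 rose by 0.16. With hybridization spike-in scaling CHMP4C, KLHL13 and STMN1 stood at 0.14, 0.081 and -0.0098, none of them called. Under that scaling 21 of the 25 fell, beside 50.7% of all genes.

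Partners of PLK1 made up 2 of the lists. In the mitotic entry circuit 9 of 18 genes fell and 5 rose, with a median of -0.088, beside 18.6% and 21.4% of all genes. FBXO5, the APC/C inhibitor that PLK1 marks for destruction, fell (-0.62), as did the cyclins CCNA2 (-0.59) and CCNB2 (-0.47). PPP2R5A, a regulatory subunit of the phosphatase PP2A, rose by 0.92, while BTRC, the F-box protein that recognises PLK1-marked substrates, rose by 0.30 and PPP2R2D by 0.29; with hybridization spike-in scaling BTRC stood at 0.13 and was not called. Among docking partners and cytokinesis genes 6 of 15 fell and 2 rose, with a median of -0.053, beside the same shares of all genes. The kinesin KIF20A, which carries the passenger complex to the midzone, fell (-0.88), as did CEP55 (-0.51) and KIF23 (-0.51). The centrosomal protein KIZ rose by 0.39 and the phosphatase subunit PPP1R12A by 0.18, the latter at 0.017 and not called with hybridization spike-in scaling.

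In the list of Aurora A activators and spindle partners 6 of 18 genes fell and 4 rose, beside 18.6% and 21.4% of all genes. The median of the list was -0.060. DLGAP5 fell (-0.63), as did the importin KPNB1 (-0.60), which keeps TPX2 inactive away from chromosomes, and the kinesin KIF11 (-0.49). CKAP5 rose by 0.22, NUMA1 by 0.20 and RCC1 by 0.13. With hybridization spike-in scaling they stood at 0.049, 0.028 and -0.033. Under that scaling 0 genes of the list rose and 11 fell, beside 9.73% rising and 50.7% falling among all genes. The 4 rises became 2 without knockdown replicate 1 or 3, without control replicate 1 or 3, or with the replicate number as a block. RCC1 lost its call without any of 5 of the arrays in turn (knockdown replicates 1 and 3 and each control replicate), with changes of 0.10 to 0.15 and adjusted p-values of 0.0570 to 0.0873, and with the block (0.0659). In the list of centriole duplication genes 8 of 17 fell and 4 rose, with a median of -0.042, beside 18.6% and 21.4% of all genes. CCP110 fell (-0.65), as did CEP85 (-0.47), the PLK4 substrate STIL (-0.37) and the PLK4 recruiter CEP152 (-0.27). CEP97, the partner of CCP110 in capping centrioles, rose by 0.50, CEP295 by 0.24 and CEP120 by 0.22, of which CEP295 and CEP120 were not called with hybridization spike-in scaling (0.074 and 0.048).

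In the list of NEK kinases and centrosome linker genes 7 of 17 rose and 3 fell, beside 21.4% rising and 18.6% falling among all genes. The median of the list was 0.097. With hybridization spike-in scaling 1 rose and 6 fell, beside 9.73% rising and 50.7% falling among all genes. The difference of this list from the other lists was not tested. NEK9, which lies downstream of PLK1, rose by 0.50, the linker protein CEP68 by 0.29 and NEK3 by 0.23. The phosphatase subunit PPP1CC, which opposes NEK2, fell (-0.53), as did STK4 (-0.18) and NEK7 (-0.16). With hybridization spike-in scaling CEP68 and NEK3 stood at 0.12 and 0.063 and were not called. Of the other Aurora and Polo kinases, PLK2, a stress-induced relative of PLK1, fell (-0.59, SE 0.05, adjusted p = 3.16e-05 in limma). AURKC stood at 0.0048 and PLK3 at 0.083, and neither passed the test.

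Among the 24 transcriptional regulators of these genes (DREAM and MuvB subunits, B-MYB, FOXM1, E2F and NF-Y factors) 8 fell and 3 rose, with a median of -0.014. Falls were called in 18.6% and rises in 21.4% of all genes. MYBL2, which encodes B-MYB, fell (-0.49), as did E2F4 (-0.36), E2F2 (-0.26) and FOXM1 (-0.25). MYBL1, a relative of MYBL2, rose by 1.11 (SE 0.07, adjusted p = 8.04e-06 in limma), the MuvB subunit LIN37 by 0.35 and E2F8 by 0.16, the last at -0.011 with hybridization spike-in scaling. E2F8 also lost its call without knockdown replicate 2 (0.15), control replicate 1 (0.15) or control replicate 3 (0.13), with adjusted p-values of 0.0563 to 0.0582 in limma.

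**Figure D4:**
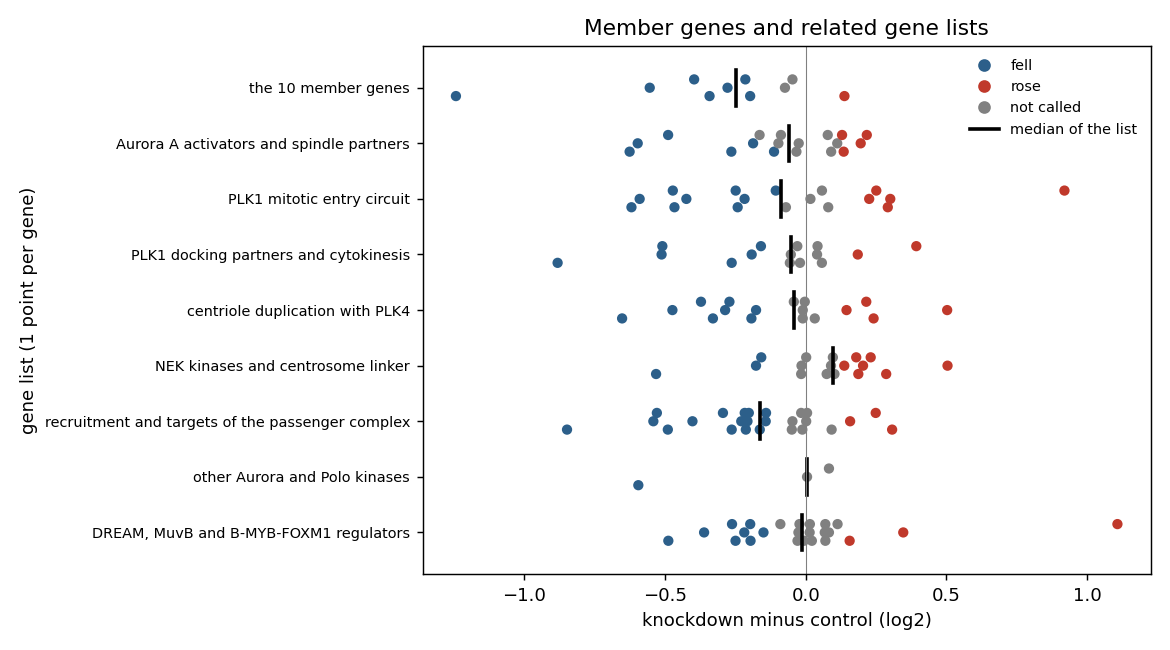
Change of every measured gene (1 point each; horizontal axis, knockdown minus control on the log2 scale, arrays as deposited) in the 10 genes described and in 8 related lists; blue fell, red rose, grey did not pass the test, and a black bar marks the median. The median of the 10 genes is -0.25 and that of the recruiters and targets of the passenger complex -0.16, while that of the NEK and centrosome linker list is 0.097.

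The 3 genes whose values lay nearest to those of AURKA over the 6 arrays were UNG, GRPEL1 and CREG1, with Euclidean distances of 0.093, 0.10 and 0.13 log2 units. UNG encodes a uracil-DNA glycosylase of base excision repair, GRPEL1 a nucleotide exchange factor of mitochondrial protein import and CREG1 a secreted glycoprotein. Their changes were -1.28, -1.24 and -1.19. The likeness rests on 6 arrays in 2 groups and mostly reflects a fall of the same size.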

How the data were processed

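Per the labels' protocols, biotin-labelled cRNA was made from Trizol-extracted total RNA for Affymetrix arrays, 3 for each group. The submitters' processing notes name RMA, affy and limma and give neither versions nor steps. The deposited values are log2 expression, as the authors made it, with a median of 0 over the 6 arrays for each probe set (at most 4.85e-07 from 0). The base of the logarithm is taken from RMA's output. Levels are therefore unknown beyond the coarse signal classes described below, and the number of arrays limits the precision.

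Of 49395 probe sets, 102 were array controls. Of the rest 44988 had 1 gene symbol in the platform's annotation, 1832 several and 2473 none, and 44961 were matched by gene number to RefSeq's table of GRCh38.p14 (0 symbols changed). Probe sets of a gene were averaged. Groups were compared with limma 3.58.1 (lmFit, then eBayes; R 4.3.3), unblocked, two-sided, adjusted over all genes or all probe sets. Probe sets within genes were compared with diffSplice. On data simulated for this comparison over 18132 genes, 90 of 100 changes of 0.5 and 100 of 100 changes of 1 were recovered, with 5 false calls. The simulated noise was independent between genes, no other genes changed and no array was shifted as a whole. Its false calls therefore do not give the rate of false calls in these data. Signal classes come from the rounding step of the values, which places a probe set between 8 and 16 (highest), 4 and 8 or below before centring; values that by chance fit a coarser step get too high a class. The lowest class held 13 of 23 background controls.

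Named genes are UBE2S, the 10 genes, up to 3 called genes per direction in each list with the largest change, and the 3 nearest to AURKA. HASPIN, CEP152, FOXM1, AURKC, PLK3, KLHL21, CUL3 and KLHL9 were added after their values were seen. The members and lists were chosen with earlier results of these data known. Same-numbered replicates were not treated as pairs: their deviations correlated at -0.030, -0.016 and -0.10. These values cannot show whether same-numbered samples were handled together. Alternatives were 15 other settings of scaling, weights, variance model, block, replicates and probe sets.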

Additional observations from a re-analysis of the deposited data

How the results depend on the processing

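AURKA, BORA, PLK1, PLK4, TPX2 and AURKB kept direction and call under every alternative that measured them, 15 for AURKA and AURKB and 14 for the rest, with AURKA between -1.41 and -1.22. Relative to the hybridization spike-ins, 1764 genes rose and 9196 fell, 4786 probe sets rose and 20889 fell, and 0 of the 10 members rose. BIRC5 then stood at -0.030 (SE 0.05, adjusted p = 0.632 in limma) and was not called. Relative to the poly-A spike-ins, 2486 genes rose and 6297 fell, 14490 probe sets fell and 0 members rose. With the highest signal class alone, fewer genes were tested: 7061 were left and 2284 of them rose. Of the 7 members left 4 fell, a count given without the share of falls among these genes. With the largest-variance probe set, BIRC5 minus its partners was 0.49. Leaving out each array in turn gave 0 to 1 risen members. The replicate block, whose numbers the main fit did not treat as pairs, gave 3615 rises and 3069 falls. It had 7 members lower, 1 higher and CDCA8 at an adjusted p of 0.0364 in limma. Where no cause is given, the cause was not tested. With centred values, signal over background is unknown for every gene named, beyond the coarse signal class of its probe sets.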
